A study of Homo sapiens with 33 samples.

Results

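Expression of 9 matrix metalloproteinase (MMP) genes was examined across 11 cell lines of high-grade serous ovarian carcinoma. The genes were chosen by symbol, as 9 rows of the 29744 in the deposited gene tables. They comprised 6 genes clustered on chromosome 11 (MMP1, MMP3, MMP7, MMP10, MMP12 and MMP13) and 3 genes located elsewhere (MMP2, MMP9 and MMP14). RNA was sequenced from 33 libraries, 3 replicates of each line. The platinum-sensitive lines were OVCAR3, OVCAR4, PEA1 and PEO1. Each had resistant counterparts: the derivatives named ResA and ResB for OVCAR3 and likewise for OVCAR4, the line PEA2 for PEA1, and the lines PEO4 and PEO6 for PEO1. This made 4 families with 7 resistant lines. The sensitive and resistant roles are those given in the publication and are absent from the sample titles. The OVCAR3 and OVCAR4 derivatives were raised in culture by repeated pulses of cisplatin, ResA and ResB independently of each other, and were not held in the drug. PEA1 and PEA2 came from a single patient at different times, as did PEO1, PEO4 and PEO6. No drug was part of the sample labels. The question was which of these proteases differed between a resistant line and its sensitive counterpart, and whether the clustered genes differed in the way the others did.

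MMPs are zinc-dependent endopeptidases that cut proteins of the extracellular matrix and of the cell surface. Most are secreted as inactive proenzymes, are switched on by removal of a propeptide by plasmin, furin or another MMP, and are held in check by the tissue inhibitors TIMP1 to TIMP4. MMP1 and MMP13 are collagenases, MMP3 and MMP10 are stromelysins, MMP12 is the macrophage elastase, and MMP7 (matrilysin) is a small enzyme made mainly by epithelial cells. MMP2 and MMP9 are gelatinases with fibronectin-like repeats, and MMP14 is anchored in the membrane, where it activates pro-MMP2 together with TIMP2. In carcinomas much MMP2 and MMP9 comes from stromal and inflammatory cells, which a cell line lacks. RNA levels say nothing of whether the proenzyme was activated.

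On the RefSeq annotation of GRCh38.p14 the clustered genes lay in the order MMP7 (chr11:102520508-102530747), MMP10 (chr11:102770502-102780628), MMP1 (chr11:102789919-102798160), MMP3 (chr11:102835801-102843609), MMP12 (chr11:102862736-102874982) and MMP13 (chr11:102942995-102955732). They spanned 435.2 kb, and all 9 protein-coding genes within that span were MMP genes, the other 3 being MMP20, MMP27 and MMP8. MMP10 and MMP1 were neighbours, separated by 9.29 kb. MMP14 lay at chr14:22836585-22847758, MMP2 at chr16:55478830-55506691 and MMP9 at chr20:46008908-46016561. The pseudogene WTAPP1 overlaps MMP1 and MMP3, and strand use in the counting is not given in the sources used here. WTAPP1 held at most 4 counts in any library.

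Library totals ranged from 1.81e+07 to 4.34e+07 estimated counts, and a count of 3, used here as the floor of detection, corresponded to between 0.0691 and 0.166 CPM (scaled by the library total). These limits cover counting error only. Nothing in the labels says that replicates came from separate cultures, so adjusted p-values measure the spread between these libraries. The mitochondrial ribosomal RNA genes RNR1 and RNR2 took from 1.12% to 14.8% of a library. Libraries of the OVCAR4 family stood apart in this. The share was 5.18%, 14.8% and 12.0% in replicates 1, 2 and 3 of OVCAR4, against 9.23%, 2.02% and 2.09% in OVCAR4 ResA and 13.1%, 2.47% and 2.39% in OVCAR4 ResB. Its part in the MMP results was not tested. In TPM, a level that adjusts for gene length and for the library total, the median over genes with at least 1 TPM in 3 libraries was 0.44 higher in OVCAR4 ResA and 0.47 higher in OVCAR4 ResB than in OVCAR4 on the log2(TPM + 1) scale. In the fit to counts the medians over genes with at least 10 counts in 3 libraries were -0.02 and -0.01. Levels are therefore given in TPM and differences from the fit to counts.

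The lines were checked against markers. In 10 of the 11 lines the 8 ovarian carcinoma markers (PAX8, WT1, MUC16, EPCAM and 4 keratins) summed to between 2698 and 7065 TPM. PEA1 was the exception, at 427.9 TPM, with EPCAM at 14.0 ± 1.20 TPM (SD, n = 3) against 574.7 ± 36.5 in PEA2, and KRT19 at 0.459 ± 0.234 TPM. PEA1 also held COL1A1, a fibrillar collagen gene, at 88.4 ± 20.3 TPM, whereas the other 5 fibroblast markers were each under 1 TPM. Its PAX8 level was 74.9 TPM. The defining leukocyte marker PTPRC was at 0 counts in all 3 PEA1 libraries and at 3.30 ± 0.245 TPM in PEA2. Of the 6 macrophage and leukocyte markers, 3 were called higher and 1 lower in PEA2 (adjusted p under 0.05). There 38.1% of all genes were called. The endothelial marker CDH5 reached 7.02 ± 1.52 TPM in PEA2, and PECAM1 6.76 ± 5.95 TPM in OVCAR3 ResB. Fibroblast markers differed in the other families too. Their sum was 4.29 TPM in OVCAR4, 21.6 in OVCAR4 ResA and 5.01 in OVCAR4 ResB, and LUM, a matrix proteoglycan gene, gave 17.7 TPM of the sum in ResA and was at 0 counts in ResB. The sum was 1.57 TPM in PEO1, 1.65 in PEO4 and 7.97 in PEO6. COL3A1, a fibrillar collagen gene, had 1 count over the PEO1 libraries and was higher by a ratio of 131.4 in PEO4 (95% counting interval 23.1 to 5234) and of 1891 in PEO6 (339.0 to 74725). Markers thus differed beside the MMP genes described below in all 4 families, but not always in the same direction. Of the 6 fibroblast markers, 1 was called higher and 1 lower in OVCAR4 ResA (adjusted p under 0.05). In OVCAR3 ResB, where MMP2 and MMP10 rose, 0 were higher and 1 was lower. In PEO4, where MMP7 fell, 2 were higher and 0 lower. In PEO6, where MMP7 rose, 2 were higher and 1 lower. Of all genes, 8.52% were called in OVCAR4 ResA, 5.78% in OVCAR3 ResB, 27.6% in PEO4 and 32.0% in PEO6. The part of these markers in the MMP differences was not tested.

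The plot of library levels shows that the 9 genes fell into those that were expressed in several lines and those that were close to absent. MMP7 reached a mean of at least 1 TPM in 9 of the 11 lines, MMP2 in 7, MMP14 in 5, MMP10 in 4, MMP9 in 2 and MMP1 in 1. MMP3, MMP12 and MMP13 did not reach it in any line. MMP7 also held the highest line mean of the 9 genes, 311.4 TPM in OVCAR4 ResA, and supplied over 90% of the summed TPM of the 6 clustered genes in 7 of the 11 lines. In OVCAR3 and OVCAR3 ResB, by contrast, it supplied 8.22% and 7.75%, and most came from MMP10.

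**Figure D1:**
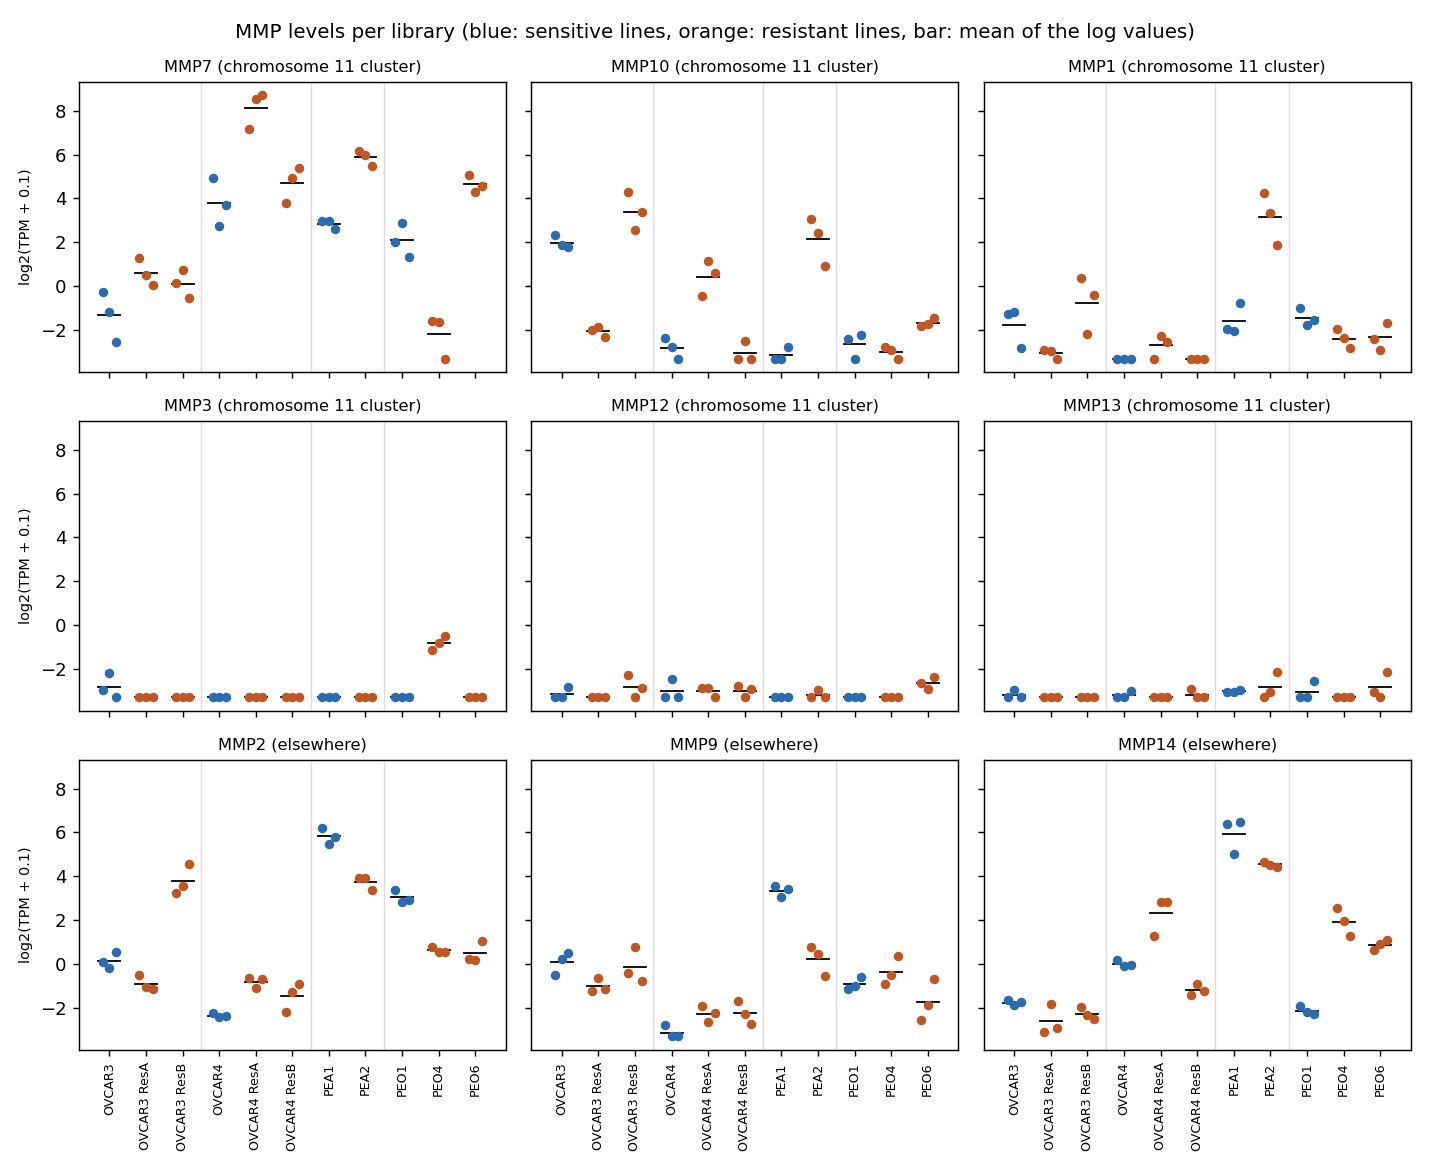
Level of each MMP gene in each library, on the log2(TPM + 0.1) scale, with 11 lines on the horizontal axis in their families and a bar at the mean of the log values of the 3 libraries. MMP7 was highest in OVCAR4 ResA and lowest in PEO4, MMP2, MMP9 and MMP14 were highest in the sensitive line PEA1, and MMP3, MMP12 and MMP13 lay near the bottom of the scale in nearly all libraries.

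MMP7, matrilysin, was the member with the widest range. Its level in the 3 OVCAR4 ResA libraries was 141.9, 377.0 and 415.3 TPM, against 30.4, 6.66 and 12.7 TPM in OVCAR4. Each OVCAR4 ResA library was therefore above each OVCAR4 library, and above each library of any other line. It was 14.5-fold higher, with a log2 fold change of 3.85 (SE 0.50) and an adjusted p of 3.35e-12 by the Wald test of DESeq2, and later values are likewise log2 fold changes ± SE. In limma on TPM the call was lost with no filter on low values (adjusted p = 0.148) and with a pseudocount of 0.1 (adjusted p = 0.0550). In OVCAR4 ResB the libraries held 13.5, 30.2 and 41.0 TPM and overlapped with OVCAR4. The difference there did not pass the test (0.35 ± 0.51, adjusted p = 0.714). It depended on replicate 1, without which it was 1.06 (adjusted p = 0.00183). Between the resistant lines, MMP7 was 11.4-fold lower in OVCAR4 ResB than in OVCAR4 ResA (-3.51 ± 0.13, adjusted p = 4.94e-154).

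MMP7 went in opposite directions in the resistant lines of the PEO family. PEO1 held 3.86, 7.32 and 2.43 TPM. PEO4 fell to 0.226, 0.217 and 0 TPM, which were 3, 4 and 0 estimated counts, and PEO6 rose to 33.9, 19.3 and 23.8 TPM. The groups did not overlap in either direction. The log2 fold change was -5.07 ± 0.80 in PEO4 (33.6-fold lower, adjusted p = 3.10e-09) and 2.59 ± 0.40 in PEO6 (6.01-fold higher, adjusted p = 1.27e-09). Both comparisons share the PEO1 libraries. Compared directly, PEO6 was above PEO4 by 7.43 ± 0.72 on the log2 scale (adjusted p = 1.21e-22).

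In the PEA family MMP7 was at 7.64, 7.58 and 6.00 TPM in PEA1 and at 71.8, 63.5 and 44.8 TPM in PEA2, a 9.09-fold rise (3.18 ± 0.26, adjusted p = 9.89e-33). The OVCAR3 family held little of it. OVCAR3 had 0.714, 0.341 and 0.0680 TPM and OVCAR3 ResA 2.30, 1.30 and 0.940 TPM. The latter was higher by 2.09 ± 0.79 (adjusted p = 0.0206), but leaving out any replicate number in both lines gave an adjusted p of 0.114 to 0.231. OVCAR3 ResB, at 1.01, 1.54 and 0.579 TPM, did not pass (1.73 ± 1.11, adjusted p = 0.498). In the order of line means, OVCAR4 ResA and then PEA2 stood apart from the next line without overlap of libraries, as did PEO1 from OVCAR3 ResA below it. Each other neighbouring pair of lines overlapped.

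MMP10, stromelysin-2, can activate other pro-MMPs, and was most abundant in OVCAR3 ResB, PEA2 and OVCAR3. OVCAR3 held 4.85, 3.49 and 3.30 TPM. OVCAR3 ResB held 19.3, 5.71 and 10.2 TPM, and OVCAR3 ResA only 0.145, 0.171 and 0.10 TPM. Each ResB library was above and each ResA library below all of those of the parental line. MMP10 fell by 4.94 ± 0.55 in OVCAR3 ResA (30.8-fold, adjusted p = 7.61e-18). In OVCAR3 ResB the rise was 1.34 ± 0.42 (adjusted p = 0.0236). That call rested on replicates 1 and 2, since the adjusted p was 0.615 without replicate 1 and 0.221 without replicate 2, and edgeR gave 0.0589. The direct difference between ResB and ResA was 6.30 ± 0.62 (78.9-fold, adjusted p = 1.24e-21).

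MMP10 was at 0, 0 and 1 estimated counts in PEA1 and at 235, 189 and 54 in PEA2 (8.14, 5.17 and 1.78 TPM). The ratio of the normalised counts was 470.1, with a 95% counting interval from 84.0 to 18607 (DESeq2 adjusted p = 2.24e-11). In OVCAR4 it was at 3, 1 and 0 counts and in OVCAR4 ResA at 17, 54 and 38 (0.623, 2.09 and 1.42 TPM), without overlap. The log2 fold change of 4.45 ± 1.28 had an adjusted p of 0.00828, which became 0.348 without replicate 2, 0.453 without replicate 3 and 0.0703 in edgeR. OVCAR4 ResB had at most 2 counts, and lay below OVCAR4 ResA by a ratio of 56.2 (95% counting interval 15.2 to 469.8, adjusted p = 1.93e-05). In PEO6 the level was low (6, 6 and 8 counts), and the difference from PEO1 did not pass (2.22 ± 1.73, adjusted p = 0.313).

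MMP1, interstitial collagenase, was the gene next to MMP10 and was high in PEA2 alone among the 11 line means. PEA2 held 18.9, 9.96 and 3.54 TPM and PEA1 0.158, 0.142 and 0.481 TPM. The lowest PEA2 library was above the highest PEA1 library, and the rise was 42.7-fold (5.42 ± 0.57, adjusted p = 8.81e-20). The PEA2 libraries had the same order for MMP1 and MMP10, highest in replicate 1 and lowest in replicate 3. That order was not particular to these neighbours, as MMP7, MMP9 and MMP14 had it in PEA2 too. Elsewhere MMP1 was sparse. OVCAR3 ResB had 25, 3 and 18 counts and OVCAR3 ResA 1, 1 and 0, a ratio of 29.3 (95% counting interval 7.66 to 249.2, adjusted p = 0.0175). Without replicate 2 or without replicate 3 the adjusted p was 0.0726 and 0.107. Against OVCAR3, at 13, 9 and 1 counts, the log2 fold change was -3.39 ± 1.60 in ResA (adjusted p = 0.0718, and 0.0137 in edgeR and 0.0236 in a DESeq2 fit of all 33 libraries) and 1.37 ± 1.15 in ResB (adjusted p = 0.669).

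MMP3, stromelysin-1, was at 0 counts in 28 of the 33 libraries. Its count, rounded, was above the floor of 3 in the 3 PEO4 libraries only, at 8, 15 and 15 counts (0.346, 0.469 and 0.598 TPM). PEO1 and PEO6 were at 0 in all libraries. Against the floor of 3 counts per library MMP3 was at least 4.77-fold higher in PEO4 than in PEO1 (adjusted p = 0.000707), and at least 5.44-fold lower in PEO6 than in PEO4 (adjusted p = 0.00326). The latter p was 0.0773 without replicate 1, 0.144 without replicate 2 and 0.553 in a fit of all 33 libraries. MMP12 did not exceed 3 counts in any library. MMP13 exceeded it in 2 libraries, replicate 3 of PEA2 and replicate 3 of PEO6, with 6 counts in each, and no comparison between a pair of lines gave it an adjusted p. Differences in MMP12 and MMP13 were thus not detectable at this depth.

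Promoter sequences are shown for MMP7, MMP10 and MMP14, the only members for which a sequence was available. MMP7 and MMP10 both rose in OVCAR4 ResA and in PEA2, while MMP14 rose in the former and fell in the latter. MMP7 and MMP10 were called in opposite directions in OVCAR3 ResA, and their Pearson r over the 11 line means of log2(TPM + 1) was -0.06. The sequences are the 250 bases before the RefSeq start on the strand of the gene (GRCh38.p14). That was the minus strand for MMP7 and MMP10 and the plus strand for MMP14. Capitals mark TGANTCA (the AP-1 motif), TATAAA (the TATA box) and CTTTGA or its reverse complement (the motif of the TCF/LEF factors of WNT signalling). In the AP-1 motif N stands for any base, and was G in the MMP7 match and A in the MMP10 match. Both strands were searched. No marked motif overlapped another.
MMP7, chr11:102530748-102530997: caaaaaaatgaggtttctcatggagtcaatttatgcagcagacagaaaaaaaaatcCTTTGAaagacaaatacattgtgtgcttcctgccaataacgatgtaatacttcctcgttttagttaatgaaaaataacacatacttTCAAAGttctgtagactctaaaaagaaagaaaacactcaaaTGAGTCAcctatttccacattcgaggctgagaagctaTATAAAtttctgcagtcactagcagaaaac
MMP10, chr11:102780629-102780878: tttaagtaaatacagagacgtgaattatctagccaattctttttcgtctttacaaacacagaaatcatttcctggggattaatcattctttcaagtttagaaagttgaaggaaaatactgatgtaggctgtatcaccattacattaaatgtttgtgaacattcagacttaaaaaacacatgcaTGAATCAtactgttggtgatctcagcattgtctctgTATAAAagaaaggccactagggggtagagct
MMP14, chr14:22836335-22836584: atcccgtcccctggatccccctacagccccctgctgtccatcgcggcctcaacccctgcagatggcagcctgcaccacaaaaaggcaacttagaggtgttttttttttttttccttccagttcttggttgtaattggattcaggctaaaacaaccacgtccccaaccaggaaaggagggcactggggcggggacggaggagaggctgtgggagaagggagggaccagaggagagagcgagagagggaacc
The MMP7 and MMP10 sequences each held an AP-1 motif beginning 67 bases before the start. They also each held a TATA box, beginning 30 and 31 bases before it. MMP7 held 2 TCF/LEF motifs as well, beginning 194 and 108 bases before the start. MMP14 held none of the 3 motifs in this window. Of 35116 promoters of the same length, 6.57% held the AP-1 motif, 10.7% the TATA box and 11.2% the TCF/LEF motif. These letter matches describe the sequence and do not show binding.

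Among the genes outside the cluster, MMP2, gelatinase A, was above the floor in all 33 libraries. PEA1 held 74.6, 43.7 and 56.1 TPM and PEA2 14.9, 15.2 and 10.4 TPM. The PEA2 libraries all lay below those of PEA1, and MMP2 fell by 1.96 ± 0.24 (3.88-fold, adjusted p = 2.44e-15). PEO1 held 10.2, 7.09 and 7.37 TPM, against 1.58, 1.37 and 1.35 TPM in PEO4 and 1.06, 1.04 and 1.97 TPM in PEO6. The fall was 2.49 ± 0.25 in PEO4 (adjusted p = 8.72e-22) and 2.66 ± 0.32 in PEO6 (adjusted p = 2.23e-15), which share the PEO1 libraries, and the 2 resistant lines differed by -0.18 ± 0.46 (adjusted p = 0.845). In this family MMP2 was thus lower in both resistant lines, whereas MMP7 was lower in only the first.

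In the OVCAR3 family MMP2 went in opposite directions. The parental line held 0.962, 0.778 and 1.36 TPM, OVCAR3 ResB 9.32, 11.5 and 23.5 TPM, and OVCAR3 ResA 0.592, 0.375 and 0.352 TPM. No library of either derivative overlapped with OVCAR3. MMP2 rose by 3.65 ± 0.38 in ResB (12.6-fold, adjusted p = 1.97e-19) and fell by 1.39 ± 0.45 in ResA (adjusted p = 0.00637). The fall had an adjusted p of 0.0741 to 0.277 when a replicate number was left out. The direct difference was 5.04 ± 0.44 (adjusted p = 9.01e-28). In the OVCAR4 family MMP2 stayed under 1 TPM in every library, and OVCAR4 ResA differed from OVCAR4 by 1.84 ± 0.98 (adjusted p = 0.233, and 0.0407 without the replicate block).

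MMP9, gelatinase B, was at 11.5, 8.18 and 10.5 TPM in PEA1 and at 1.58, 1.27 and 0.583 TPM in PEA2. It fell by 3.09 ± 0.35 (8.51-fold, adjusted p = 1.55e-17), without overlap of libraries. In each other line its mean was under 1 TPM. OVCAR3 ResA held 0.319, 0.529 and 0.346 TPM against 0.608, 1.06 and 1.31 TPM in OVCAR3, lower by a log2 fold change of -1.43 ± 0.55 (adjusted p = 0.0231, and 0.141 to 0.369 with a replicate number left out). PEO4, PEO6 and OVCAR3 ResB did not pass against their sensitive lines, with log2 fold changes between -1.21 and 0.70. MMP9 had no adjusted p in the OVCAR4 family against the parental line, which held 2, 0 and 0 counts.

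MMP14, the membrane-anchored activator of MMP2, was highest in PEA1 at 82.4, 32.0 and 88.4 TPM. PEA2 held 25.3, 23.1 and 21.5 TPM, a log2 fold change of -1.29 ± 0.27 (adjusted p = 1.01e-05) without overlap of libraries. In the OVCAR4 family it went in opposite directions. OVCAR4 held 1.04, 0.83 and 0.85 TPM, OVCAR4 ResA 2.29, 7.0 and 6.94 TPM, and OVCAR4 ResB 0.266, 0.420 and 0.317 TPM, with no overlap between any of the 3 lines. It rose by 1.89 ± 0.46 in ResA (adjusted p = 0.000910) and fell by 2.02 ± 0.59 in ResB (adjusted p = 0.00634). Both calls were lost without replicate 2 or without replicate 3 (adjusted p of 0.258 and 0.369 in ResA, and of 0.303 and 0.448 in ResB). In ResA edgeR gave 0.0532. The direct difference, -3.97 ± 0.39, had an adjusted p of 1.97e-22 and was called under every alternative.

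MMP14 rose in both resistant PEO lines. PEO1 held 0.163, 0.120 and 0.101 TPM, PEO4 5.73, 3.82 and 2.29 TPM, and PEO6 1.44, 1.77 and 2.03 TPM. The rise was 30.3-fold in PEO4 (4.92 ± 0.43, adjusted p = 1.59e-28) and 13.5-fold in PEO6 (3.75 ± 0.55, adjusted p = 2.00e-10). PEO6 was below PEO4 (-1.15 ± 0.41, adjusted p = 0.0292), a call lost in edgeR (adjusted p = 0.0589), without replicate 1 (0.529), without replicate 2 (0.444) and in limma on TPM under each setting (0.174 to 0.316). MMP2 and MMP14 therefore moved in opposite directions in PEO4 and PEO6 and in the same direction in PEA2. In the OVCAR3 family MMP14 held at most 16 counts in a library and no comparison passed in the fit of the pair. For OVCAR3 ResA against OVCAR3 (-2.04 ± 1.07, adjusted p = 0.109), the adjusted p was 0.0348 in edgeR and 0.0381 in a DESeq2 fit of all 33 libraries.

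**Figure D2:**
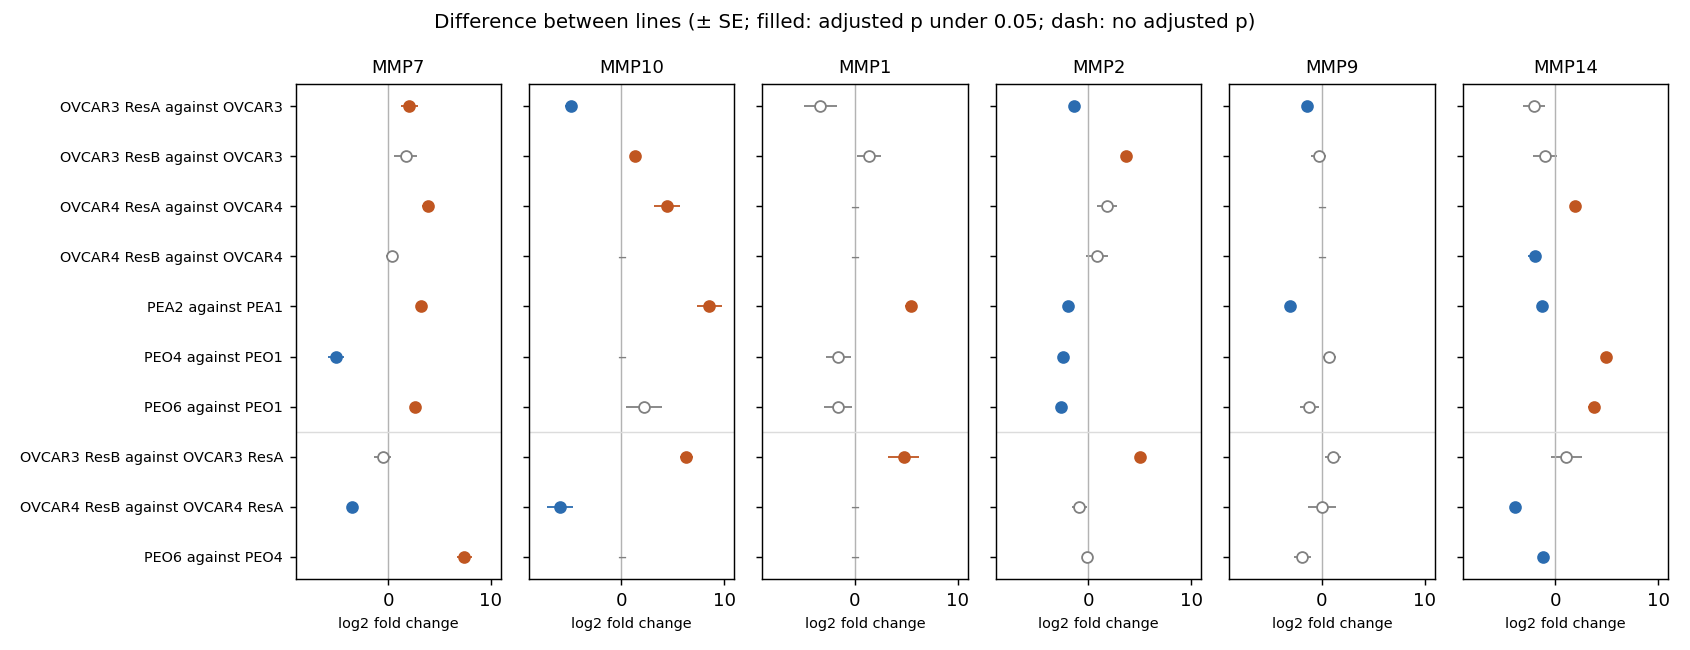
Log2 fold change of 6 MMP genes (horizontal axis, ± SE from DESeq2) in the 7 comparisons of a resistant with a sensitive line, above the grey line, and the 3 comparisons of resistant lines below it. Filled points had an adjusted p under 0.05, orange for higher and blue for lower, and a dash marks no adjusted p or both lines at or under the floor. MMP7 was higher in 4 and lower in 1 of the 7 upper comparisons, and MMP2 was lower in 4 and higher in 1.

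Counts of members called are read against the share of all tested genes called in the same comparison (DESeq2 adjusted p under 0.05). Tested genes are those with a p-value, also where the tool's own filter left no adjusted p. Members are counted over those with an adjusted p, so the bases differ and the all-gene share is the lower for it. In PEA2 against PEA1, 3 members were higher and 3 lower, of 6 with an adjusted p, and 38.1% of all genes were called. The 3 that were higher (MMP1, MMP7 and MMP10) were clustered genes and the 3 that were lower (MMP2, MMP9 and MMP14) were those elsewhere. In OVCAR3 ResA 1 member was higher and 3 were lower of 6, where 37.2% of all genes were called. In OVCAR3 ResB 2 were higher of 6, where 5.78% were called. In OVCAR4 ResA 3 were higher of 4, where 8.52% were called, and in OVCAR4 ResB 1 was lower of 3, where 13.8% were called. In PEO4 2 were higher and 2 lower of 6, where 27.6% were called, and in PEO6 2 were higher and 1 lower of 6, where 32.0% were called. Between resistant lines, 3 members were higher in OVCAR3 ResB than in OVCAR3 ResA (10.2% of all genes called), 3 were lower in OVCAR4 ResB than in OVCAR4 ResA (24.7%), and 1 was higher and 2 lower in PEO6 than in PEO4 (14.0%).

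Over the 7 comparisons of a resistant with a sensitive line, the clustered genes gave 42 combinations of gene and comparison. Of these 9 were higher, 2 lower, 7 did not pass, 2 had no adjusted p and 22 had both lines at or under the floor. The genes elsewhere gave 21 combinations, with 4 higher, 8 lower, 7 that did not pass and 2 with no adjusted p. The median log2 fold change of the combinations with an adjusted p was 1.91 for the clustered genes and -1.21 for the others, where the median of all genes lay between -0.05 and 0.11 in the 7 comparisons. MMP7 alone gave 4 of the 9 higher calls and MMP10 gave 3. Comparisons within a family share the libraries of the sensitive line, and the difference between the gene groups was not tested.

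The difference between a resistant line and its sensitive line varied between the 7 pairs for 6 of the 9 genes. In this likelihood-ratio test in DESeq2 over all 33 libraries, 54.0% of all genes were called. The 6 genes were MMP1, MMP7, MMP10, MMP2, MMP9 and MMP14. Each resistant line is a single line, so what sets it apart from its sensitive line besides resistance is part of the difference. MMP3 did not pass (adjusted p = 0.845), and MMP12 and MMP13 had no adjusted p. With the libraries of each line summed and the family as a covariate, 7 resistant lines were compared with 4 sensitive lines. There 0 of the 9 genes passed in DESeq2 and 0 in edgeR, and 0.276% of all genes were called in DESeq2. MMP7 had the lowest p, with a log2 fold change of 2.08 ± 0.93 (DESeq2 adjusted p = 0.669), and was the only 1 of the 9 with an unadjusted p under 0.05 in DESeq2, against 0 in edgeR.

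**Figure D3:**
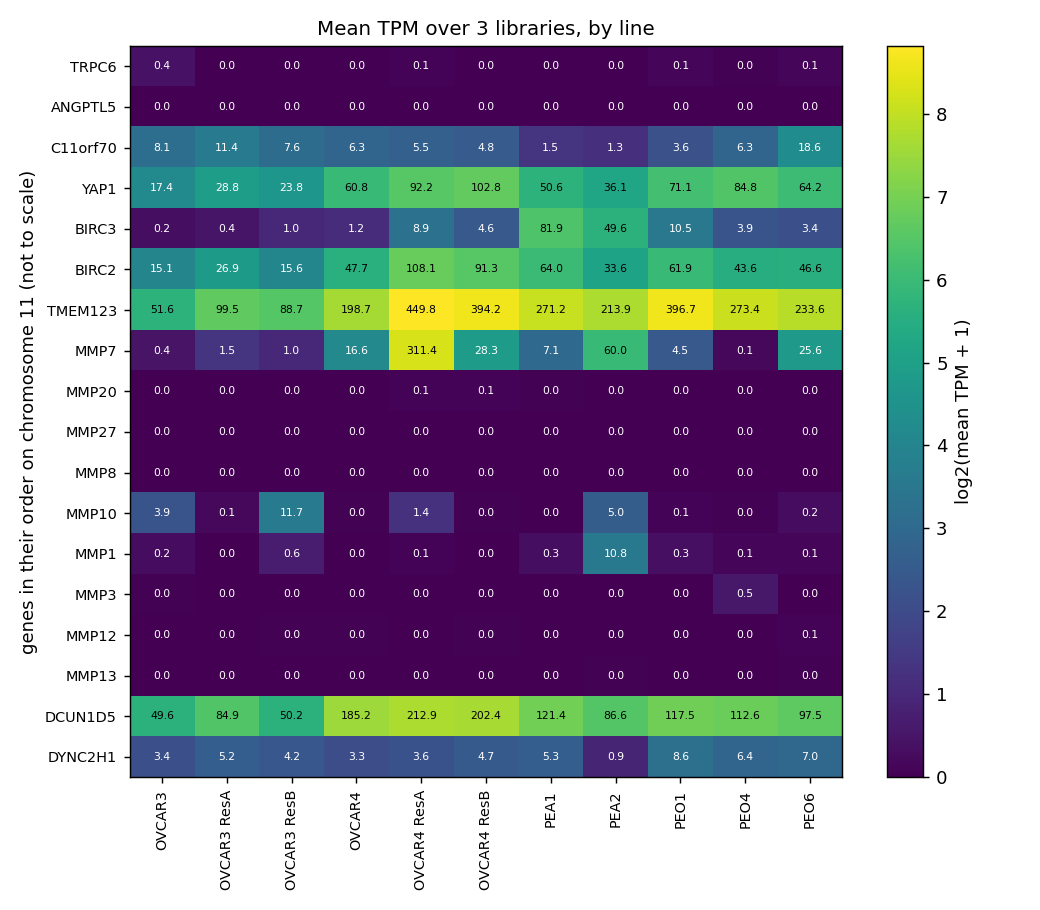
Mean TPM of the 3 libraries of each line (columns) for the MMP cluster and the genes on either side of it, in their order on chromosome 11 and not to scale (rows), with colour for log2(mean TPM + 1) and the mean printed in each cell. TMEM123, which borders MMP7, was at 51.6 TPM or more in every line, whereas MMP7 ran from 0.148 to 311.4 TPM.

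The map of levels along chromosome 11 shows the cluster between expressed neighbours. TMEM123, which encodes a cell-surface mucin-like protein and borders MMP7, ranged from 51.6 TPM in OVCAR3 to 449.8 TPM in OVCAR4 ResA. It did not pass in OVCAR4 ResA against OVCAR4 (0.60 ± 0.43, adjusted p = 0.416) or in PEA2 against PEA1 (-0.19 ± 0.23, adjusted p = 0.540), the comparisons in which MMP7 rose 14.5-fold and 9.09-fold. BIRC3, an inhibitor of apoptosis on the same side, rose in OVCAR4 ResA (2.33 ± 0.41, adjusted p = 9.51e-07) and fell in PEO6 (-1.67 ± 0.27, adjusted p = 9.89e-09), where MMP7 rose. The 9 flanking genes gave 9 higher and 10 lower calls among 63 combinations of gene and comparison, which was 35.8% of those with an adjusted p. Over all genes in the same 7 comparisons 23.4% were called, the share against which the lists below are to be read. That share is over genes with a p-value, some of which the tool's own filter left without an adjusted p. The list shares are over combinations with an adjusted p only. On that base the share of all genes would be higher, and it is not given here. MMP8, MMP20 and MMP27, which lie between MMP7 and MMP10, gave no call, with both lines at or under the floor in 20 of 21 combinations. The part of gene copy number in these levels was not tested.

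Among the inhibitors of MMPs, the 5 genes TIMP1 to TIMP4 and RECK gave 7 higher and 5 lower calls in 35 combinations. That was 38.7% of those with an adjusted p, against 23.4% over all genes. TIMP3, which binds the matrix, fell in both OVCAR4 derivatives, from 50.4 ± 12.3 TPM (SD, n = 3) to 23.1 ± 8.53 in ResA (-1.70 ± 0.33, adjusted p = 1.28e-05) and 21.4 ± 6.43 in ResB (-1.82 ± 0.31, adjusted p = 2.22e-07). In the same ResA line MMP7, MMP10 and MMP14 rose. TIMP3 was at 0 counts in PEA1 and at 14.2 ± 5.83 TPM in PEA2, at least 481.5-fold higher against the floor per library. RECK, a membrane-anchored inhibitor, fell in PEA2 from 5.18 ± 1.84 to 0.432 ± 0.0810 TPM (-3.40 ± 0.34, adjusted p = 4.21e-22). TIMP2 takes part in the activation of MMP2 by MMP14. It rose in OVCAR3 ResB (1.34 ± 0.33, adjusted p = 0.00133), as MMP2 did, and fell in PEO6 (-1.76 ± 0.22, adjusted p = 6.73e-14), as MMP2 did. TIMP2 did not follow MMP2 throughout. In OVCAR3 ResA, where MMP2 fell, TIMP2 was at 241.3 ± 20.7 TPM against 92.7 ± 14.1 in OVCAR3. In PEO4, where MMP2 also fell, TIMP2 was at 195.2 ± 29.6 TPM against 203.9 ± 44.6 in PEO1.

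**Figure D4:**
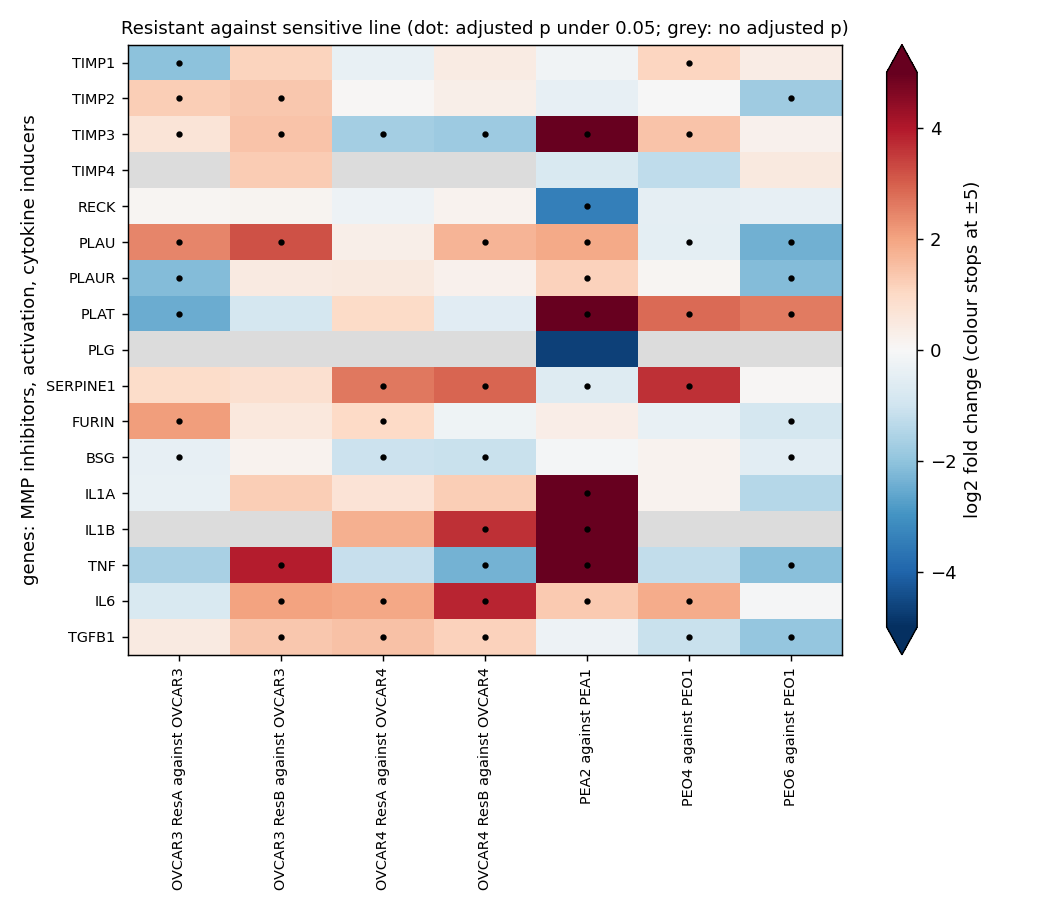
Log2 fold change of MMP inhibitors, genes of MMP activation and cytokines that induce MMPs (rows) in the 7 comparisons of a resistant with a sensitive line (columns), with colour limited to ±5, a dot for an adjusted p under 0.05 and grey for no adjusted p or both lines at or under the floor. The strongest colours stand in PEA2 against PEA1, where IL1A, IL1B, TNF, PLAT and TIMP3 each rose by more than the colour limit.

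The genes of MMP activation gave 13 higher and 11 lower calls in 49 combinations (55.8% of those with an adjusted p, against 23.4% over all genes). PLAU, the urokinase that makes plasmin, rose in both OVCAR3 derivatives, from 24.3 ± 3.91 TPM to 144.6 ± 24.2 in ResA (2.42 ± 0.13, adjusted p = 6.62e-72) and 253.8 ± 131.0 in ResB (3.17 ± 0.33, adjusted p = 5.21e-19). It fell in PEO6 (-2.41 ± 0.22, adjusted p = 2.10e-26). PLAT, the tissue-type activator, rose in PEA2 from 10.3 ± 2.05 to 325.7 ± 2.32 TPM (5.12 ± 0.23, adjusted p = 1.51e-106), and also in PEO4 (2.84 ± 0.18) and PEO6 (2.60 ± 0.24).

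The 5 cytokines listed as inducers of MMPs were IL1A, IL1B, TNF, IL6 and TGFB1. They gave 13 higher and 4 lower calls in 35 combinations (54.8%, against 23.4% over all genes). In PEA2, where MMP1 and MMP10 rose most, 4 of the 5 rose, and 38.1% of all genes were called. IL1A went from 0.0649 ± 0.0218 TPM in PEA1 to 439.7 ± 25.8 in PEA2 (12.80 ± 0.53, adjusted p = 2.32e-125). IL1B held 1 count over the 3 PEA1 libraries and 268.3 ± 22.6 TPM in PEA2, a ratio of 21153 (95% counting interval 3796 to 835545). TNF rose by 6.70 ± 0.45 and IL6 by 1.33 ± 0.32. In OVCAR3 ResB, where MMP10 and MMP2 were higher, TNF (3.93 ± 0.64, adjusted p = 7.63e-08) and IL6 (2.03 ± 0.54, adjusted p = 0.00424) rose as well. IL6 also rose in OVCAR4 ResB (3.82 ± 0.55, adjusted p = 1.98e-10), where no clustered gene was called. In that line 3 of the 5 cytokines were higher and 1 was lower, and 13.8% of all genes were called. In OVCAR4 ResA, where MMP7 and MMP10 rose, 2 were higher and 0 lower, and 8.52% of all genes were called. In PEO6, where MMP7 rose, 0 of the 5 cytokines were higher and 2 were lower, and 32.0% of all genes were called. In OVCAR3 ResA, where MMP7 was called higher, 0 were higher and 0 lower, and 37.2% of all genes were called.

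The 12 AP-1 and ETS factors, families with known sites in MMP promoters, gave 24 higher and 13 lower calls in 84 combinations (44.0%, against 23.4% over all genes). FOSL1, a FOS-family member of AP-1, fell in PEO6 from 133.9 ± 100.3 to 2.38 ± 1.60 TPM (-5.78 ± 0.31, adjusted p = 4.41e-74), where MMP7 rose. AXIN2, a target gene of WNT signalling, rose in OVCAR4 ResA from 1.14 ± 0.567 to 8.09 ± 1.96 TPM (2.38 ± 0.43, adjusted p = 2.64e-06) along with MMP7. It also rose in PEO4 (3.88 ± 0.27, adjusted p = 1.93e-44), where MMP7 fell, and fell in PEA2 (-5.57 ± 1.0, adjusted p = 1.60e-07), where MMP7 rose. The 4 WNT genes gave 6 higher and 7 lower calls in 28 combinations (48.1% of those with an adjusted p). CD44, a cell-surface protein that holds MMP7 and MMP9 at the membrane, rose in OVCAR4 ResA (4.15 ± 0.37, adjusted p = 1.29e-26) and in PEA2 (1.68 ± 0.21, adjusted p = 1.01e-14). It fell in PEO6 from 324.4 ± 81.4 to 4.31 ± 2.47 TPM (-6.39 ± 0.24, adjusted p = 2.54e-150). The 4 surface partners and substrates gave 10 higher and 3 lower calls in 28 combinations (46.4%), where 23.4% of all genes were called.

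The other membrane-bound MMPs gave 4 higher and 4 lower calls in 35 combinations (28.6% of those with an adjusted p), and the other secreted MMPs 1 higher and 2 lower in 42 (23.1%), with both lines at or under the floor in 22. Both shares were near the 23.4% over all genes, which has the wider base given above.

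The genes whose levels were most like those of each member were sought over the 11 line means of log2(TPM + 1), among 13185 genes with a mean of at least 5 TPM in some line. These correlations describe 11 points, several of which share a family. A line in which both genes peak can carry a high value, and this was not tested. Not all pairs shared a peak. COG6 and RGS7, named below, peaked in PEA2, whereas MMP7 peaked in OVCAR4 ResA and MMP10 in OVCAR3 ResB. MMP7 was most like MAML2 (Pearson r = 0.94), PPAPDC1B (r = 0.88) and COG6 (r = 0.88). MMP10 was most like RGS7 (r = 0.87), ANKRD34B (r = 0.87) and TIMMDC1 (r = 0.86), and MMP1 was most like DEFB4A, APCDD1L and IL13RA2 (r = 0.98 for each), all highest in PEA2. MMP2 was most like LOXL2 (r = 0.93), SGK223 (r = 0.93) and DPY19L2P1 (r = 0.91). MMP9 was most like RP11-75C9.1 (r = 0.97), CTHRC1 (r = 0.96) and LSM6 (r = 0.96), and MMP14 was most like CKAP4 (r = 0.93), LOC152225 (r = 0.92) and EMP3 (r = 0.92). The genes like MMP2, MMP9 and MMP14 all peaked in PEA1.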

How the data were processed

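RNA-seq libraries of 11 ovarian carcinoma cell lines, 3 per line, were analysed from 29744 gene rows. The authors deposited estimated counts and TPM per gene from salmon, merged over samples, with 88.4% of the estimated counts whole. The submitters' processing notes name GRCh38 and DRAGEN. Per the study's methods, reads went through the nf-core/rnaseq pipeline on GRCh38. Lines were taken from the sample titles, and the sensitive and resistant roles from the study's text. All value columns matched a sample.

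Estimated counts were rounded and each pair of lines was tested with DESeq2 1.42.0, the method of the study. The Wald test was used with replicate number and line in the design and no filter beforehand. Benjamini-Hochberg adjustment was over the genes left by the tool's own filter on mean count. Before that filter 20664 to 21912 genes per resistant and sensitive pair had a p-value. edgeR 4.0.16 (quasi-likelihood), limma 3.58.1 on log2(TPM + 1) or log2(TPM + 0.1), another normalisation, a filter of 10 counts in 3 libraries, no replicate block, all 33 libraries in one fit, RNR1 and RNR2 left out of TPM, and leaving out each replicate number were alternatives (R 4.3.3, Python 3.11.15). The tests were checked on simulated data. The TPM keep no depth, so TPM were used for levels. A fold against a line at 0 uses a floor of 3 counts per library, and ratios against 1 to 3 summed counts have an exact 95% interval. Replicates differed beyond counting error (chi-square per degree of freedom 30.6 to 533.7), so none was counted as a duplicate.

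All 9 members are named. Other genes come from lists of MMP regulators, neighbours and cell type markers, or are the 3 most correlated with a member that reached 1 TPM in a line. Members and lists were chosen with earlier results of these data known. The labels do not say that a replicate number marks a shared day. Libraries of the same number deviated together, every pair with r over 0.1, in 2 of 10 comparisons. These were OVCAR3 ResA against OVCAR3 (0.749, 0.291 and 0.579) and OVCAR4 ResB against OVCAR4 ResA (0.736, 0.582 and 0.618). Every r was negative in OVCAR4 ResA against OVCAR4 (-0.465, -0.363 and -0.119) and in OVCAR4 ResB against OVCAR4 (-0.485, -0.396 and -0.053). The same held in PEO6 against PEO4 (-0.323, -0.122 and -0.444). Coordinates and promoter sequences are from RefSeq on GRCh38.p14, in which 3 of the 9 members had a promoter sequence.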

Additional observations from a re-analysis of the deposited data

Results flagged for a closer look

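The difference between a resistant line and its sensitive line was not the same in the 7 pairs for 6 members, by the likelihood-ratio test of the difference itself in DESeq2 over 33 libraries. The adjusted p was 6.85e-98 for MMP2, which rose in OVCAR3 ResB and fell in OVCAR3 ResA, PEA2, PEO4 and PEO6. It was 3.95e-41 for MMP10, which fell in OVCAR3 ResA and rose in OVCAR3 ResB, OVCAR4 ResA and PEA2. It was 2.17e-39 for MMP14, which rose in OVCAR4 ResA, PEO4 and PEO6 and fell in OVCAR4 ResB and PEA2. For MMP7 it was 1.22e-27, with a fall in PEO4 alone among the calls. MMP1, called in PEA2 alone, had an adjusted p of 1.69e-10, and MMP9, called in OVCAR3 ResA and PEA2, had 1.29e-05. Of all genes tested, 54.0% were called in this test.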

How the results depend on the processing

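Of the log2 fold changes of members under the alternatives, 544 kept their direction and their side of the threshold, 50 lost a call, 8 gained one and 10 reversed. The 6 calls in PEA2 and the 3 in PEO6 against PEO1 were made under every alternative, and the test of the difference between pairs gave 6 calls in all 7. Members called in OVCAR3 ResA were 1 against 4 in limma with the filter of 1 TPM on log2(TPM + 1) and on log2(TPM + 0.1), and 2 without RNR1 and RNR2, since that filter removed the other called members, and 4 in limma without it. In OVCAR3 ResB they fell from 2 to 1 in edgeR and in limma, and to 0 in limma without the filter. In OVCAR4 ResA they fell from 3 to 1 in edgeR and in limma on log2(TPM + 1), with or without RNR1 and RNR2, and to 0 in limma without the filter or with a pseudocount of 0.1. In OVCAR4 ResB limma made 0 calls against 1. In OVCAR3 ResB against OVCAR3 ResA limma without the filter made 0 against 3, and in PEO6 against PEO4 limma made 1 against 3. That filter also removed MMP10 in OVCAR4 ResA, MMP14 in OVCAR4 ResB and MMP3 in PEO6 against PEO4. The cause of the other losses was not tested.

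Without 1 replicate number the members called ranged from 1 to 1 in OVCAR3 ResA, 1 to 2 in OVCAR3 ResB, 1 to 3 in OVCAR4 ResA, 0 to 2 in OVCAR4 ResB, 2 to 2 in OVCAR3 ResB against OVCAR3 ResA and 1 to 2 in PEO6 against PEO4. The log2 fold change then ranged from -0.92 to 0.46 for MMP9 in OVCAR3 ResB and from -0.14 to 1.06 for MMP7 in OVCAR4 ResB. Over summed lines it ranged from -1.50 to 0.016 for MMP13 and from -0.078 to 0.48 for MMP14, and it reversed to 1.19 for MMP3 without the OVCAR3 family, 0.11 for MMP2 and 0.19 for MMP9 without the PEA family, 1.08 for MMP2 and -0.56 for MMP14 without the PEO family, and -0.13 for MMP14 without the OVCAR4 family, none of them called.

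Without the replicate block, the members called were 4 against 3 in OVCAR4 ResA, through MMP2, and the block changed no other call of a member. Over all genes, leaving out the block lowered the calls from 8146 to 5456 in OVCAR3 ResA against OVCAR3. It lowered them from 5218 to 2094 in OVCAR4 ResB against OVCAR4 ResA. In each other comparison of a pair of lines it raised them. The calls went from 1784 to 3462 in OVCAR4 ResA, from 2853 to 4765 in OVCAR4 ResB and from 3043 to 4563 in PEO6 against PEO4. In 0 of 10 comparisons did all 6 libraries correlate best with their own number.

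All-gene calls over the alternatives ranged from 4920 to 9839 in OVCAR3 ResA (8146 in DESeq2 as reported), 2 to 3056 in OVCAR3 ResB (1255), 0 to 6221 in OVCAR4 ResA (1784), 0 to 7241 in OVCAR4 ResB (2853), 4283 to 9174 in PEA2 (8088), 2921 to 6388 in PEO4 (5820), 3712 to 7607 in PEO6 (6962), 6 to 5042 in OVCAR3 ResB against OVCAR3 ResA (2202), 1847 to 5947 in OVCAR4 ResB against OVCAR4 ResA (5218), 273 to 5223 in PEO6 against PEO4 (3043) and 0 to 199 over summed lines (68). In TPM the share of calls that were higher moved from 56.2% to 73.4% in OVCAR4 ResA, 50.9% to 71.7% in OVCAR4 ResB and 49.0% to 63.5% in OVCAR3 ResA, and without the filter from 54.2% to 64.8% in PEO6 against PEO4. Depth limits MMP3, MMP12 and MMP13, which lay at or under 15 counts in every library.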
